A study of Mus musculus with 32 samples.

Results

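The median eminence (ME) is the strip of tissue at the floor of the hypothalamus where neurosecretory axons meet the portal vessels of the pituitary. Neurons were identified among its single cells, and the cells described here are those neurons in which no transcript of the GABA marker genes was counted. The members were chosen by their counts of unique molecular identifiers (UMIs, each standing for 1 captured transcript). A member had at least 20 UMIs of Snap25, Syt1, Stmn2 and Stmn3 together and fewer than 20 of Cga. It had 0 of Gad1, Gad2 and Slc32a1, fewer than 30 of Agrp and fewer than 20 of Sst. Cells with Six3 together with either Vipr2 or at least 20 UMIs of Avp were left out. This rule found 59 cells of 5982, or 0.986% of all cells (95% interval 0.752 to 1.27) and 13.5% of the 437 neurons (10.4 to 17.1). All 59 neurons without a GABA marker UMI passed the other limits. The comparison group, called GABAergic neurons below, held the 245 neurons under the same limits with at least 1 UMI of Gad1, Gad2 or Slc32a1.

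The cells came from male C57B/L6 mice aged 40 to 47 days, 5 of them fasted for 16 h overnight and 5 refed for 1 h after such a fast. The ME of each condition was combined, and its live sorted cells were split over 2 libraries. Each cell name carries a number, 1 to 4, that the sources used here tie to neither a library nor a condition, so fasted and refed cells cannot be told apart and all values are for both together. The matrix was therefore 1 sample without replicates, no test between groups was run, and the 4 barcode numbers are given as parts of it, as in "14, 8, 16 and 21 members". Intervals are at the 95% level and cover counting error only.

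Most hypothalamic neurons signal either with GABA or with glutamate. GABA is made by the enzymes that Gad1 and Gad2 encode and is loaded into vesicles by the transporter encoded by Slc32a1. Glutamate is loaded by vesicular glutamate transporters, of which VGLUT2, encoded by Slc17a6, is the usual form in the hypothalamus. Many of these neurons also release peptides, and cells of the arcuate nucleus that combine neurokinin B and dynorphin with kisspeptin (KNDy neurons) are known for driving the pulses of gonadotropin-releasing hormone.

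The label given to these cells, neurons that carry Snap25, Syt1 and Slc17a6, held in most of them. Snap25, a part of the fusion machinery of synaptic vesicles, was found in all 59 members and Syt1, the calcium sensor of vesicle release, in 51, but both genes are in the rule. Slc17a6, which the rule did not use, had a UMI in 54 of 59 members (91.5%, 81.3 to 97.2). Slc17a7 and Slc17a8, which encode the other vesicular glutamate transporters, had 0 UMIs in the members, a limit of 3.94 CPM. Here CPM is the number of UMIs of a gene per 1e+06 UMIs of the group, and a count of 0 is read as at most 3 counts.

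The level of Slc17a6 in the members was 222 CPM in barcode number 1, 381 in number 2, 284 in number 3 and 325 in number 4. In the GABAergic neurons it was 106, 54.8, 54.1 and 60.4 CPM. In every barcode number the members lay above every value of the GABAergic neurons, and number 1 had the lowest members and the highest GABAergic neurons. Over all cells the level was 296 CPM (258 to 337) in the members and 66.3 CPM (57.8 to 75.6) in the GABAergic neurons, of which 56 of 245 (22.9%) had a UMI. The ratio was 4.46 (3.69 to 5.40). A single member had a median of 4 Slc17a6 UMIs and at most 10. A Slc17a6 UMI was also found in 0.760% of 526 microglial cells (with a median depth of 3100 UMIs, where the members had 12379). In 664 oligodendrocytes (median 6146) the share was 0.602%. The part of free RNA in the droplets was not tested. With every cell thinned to 2000 UMIs, the shares were 40.7% in the members, 8.57% in the GABAergic neurons, 0.847% in the microglial cells left and 0.151% in the oligodendrocytes left.

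The 300-base windows at the start of Slc17a6, which carries this contrast, and of Tac2, which marks the largest set of members described below, follow from RefSeq on GRCm38.p6, each on its own gene's strand with 250 bases before and 50 after the annotated start. Both genes lie on the plus strand, Slc17a6 at chr7:51621580-51621879 and, for its other annotated start, at chr7:51624387-51624686, and Tac2 at chr10:127724228-127724527. Capitals mark exact matches to TAATTA, the core of many homeodomain sites, or CAGCTG, an E-box. Both words read the same on either strand and do not overlap each other here. The counts, taken at the 3' end of transcripts, do not say which start was used.
Slc17a6, first start: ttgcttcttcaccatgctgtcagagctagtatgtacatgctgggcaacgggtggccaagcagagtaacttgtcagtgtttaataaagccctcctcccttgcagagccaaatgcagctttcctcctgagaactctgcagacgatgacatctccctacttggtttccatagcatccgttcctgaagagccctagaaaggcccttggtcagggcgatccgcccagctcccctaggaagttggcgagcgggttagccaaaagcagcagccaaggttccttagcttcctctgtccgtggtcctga
Slc17a6, other start: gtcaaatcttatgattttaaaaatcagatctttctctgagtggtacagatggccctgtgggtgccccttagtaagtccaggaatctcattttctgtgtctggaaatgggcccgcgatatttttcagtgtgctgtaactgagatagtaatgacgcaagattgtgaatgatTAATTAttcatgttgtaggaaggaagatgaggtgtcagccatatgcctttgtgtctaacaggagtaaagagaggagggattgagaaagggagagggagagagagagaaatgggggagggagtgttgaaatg
Tac2: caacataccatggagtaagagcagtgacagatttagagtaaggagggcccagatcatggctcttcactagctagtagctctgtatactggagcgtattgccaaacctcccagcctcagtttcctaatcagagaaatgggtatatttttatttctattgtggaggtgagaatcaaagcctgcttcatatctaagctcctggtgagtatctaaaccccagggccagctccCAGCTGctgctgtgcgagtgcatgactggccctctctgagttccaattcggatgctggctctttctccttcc
The other start of Slc17a6 held 1 TAATTA, which begins at position -81 from the start, and Tac2 held 1 CAGCTG, which begins at -22. Of 32851 promoter windows of this length, 5.29% held TAATTA and 16.3% held CAGCTG.

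The change in Slc17a6 did not lie at the boundary that the rule sets. Among neurons under the same limits, a Slc17a6 UMI was present in 19 of 21 cells with 1 GABA marker UMI, in 10 of 12 with 2 and in 16 of 21 with 3 to 5. It was present in 7 of 56 cells with 6 to 10 GABA marker UMIs, in 3 of 87 with 11 to 20 and in 1 of 48 with 21 or more. The level of Slc17a6 was 312 CPM at 1 GABA marker UMI, 237 at 2, 223 at 3 to 5, 25.7 at 6 to 10, 5.09 at 11 to 20 and 2.66 at 21 or more. The 21 cells with 1 GABA marker UMI, just outside the rule, thus had a Slc17a6 level within the interval of the members. Against the 191 GABAergic neurons with at least 6 GABA marker UMIs alone, a comparison added after these values were seen, the level of 296 CPM stood against 9.65 CPM.

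Dlx1, Dlx2, Dlx5 and Dlx6, homeobox genes known for specifying GABAergic neurons of the forebrain, ran the other way, although the rule did not use them. A UMI of any of the 4 was found in 1 of 59 members, in 2 of 21 cells with 1 GABA marker UMI, in 0 of 12 with 2 and in 6 of 21 with 3 to 5. It was found in 37 of 56 cells with 6 to 10, in 73 of 87 with 11 to 20 and in 45 of 48 with 21 or more. The plot of both transcripts by GABA marker count shows this crossing between the cells with 3 to 5 and those with 6 to 10.

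**Figure D1:**
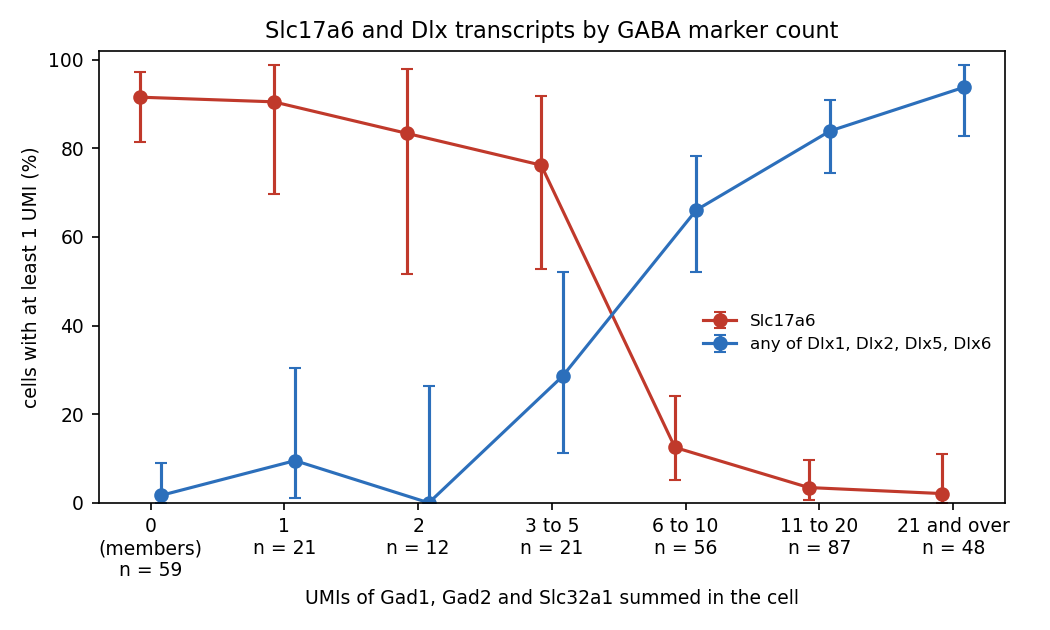
Share of neurons (%, vertical axis) with at least 1 UMI of Slc17a6 (red) or of any of Dlx1, Dlx2, Dlx5 and Dlx6 (blue), by the UMIs of Gad1, Gad2 and Slc32a1 summed in the cell (horizontal axis, numbers of cells below); bars are exact 95% binomial intervals. The 59 members stand at the left, with 91.5% for Slc17a6 and 1.69% for Dlx, and cells with up to 5 GABA marker UMIs stay above 76% for Slc17a6.

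A count of 0 depends on depth. The members had a median of 12379 UMIs per cell (4337 to 23882) and 4051 genes, and the GABAergic neurons 13793 UMIs (5029 to 23414) and 4386 genes. In a member of median depth, 0 UMIs allowed up to 242 CPM of the GABA marker genes, where the median GABAergic neuron had 916 CPM, and 41 of the 245 GABAergic neurons lay under that limit. In 4 depth groups of 109 or 110 neurons each, from shallow to deep, the members' share was 20.9%, 18.3%, 7.34% and 7.34%. With every neuron thinned to 2000 UMIs, 125 of 437 (28.6%) were without a GABA marker UMI in a random draw and 119 (27.2%) in another. At the lower limit of 20 UMIs of the neuronal genes, the 6 members with 20 to 24 had a Slc17a6 level of 234 CPM, and the 7 otherwise eligible cells with 15 to 19 had 273 CPM. By barcode number the members were 14 of 88 neurons (15.9%), 8 of 68 (11.8%), 16 of 143 (11.2%) and 21 of 138 (15.2%), with intervals that overlapped.

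The members were not a uniform population. Sets drawn after the values had been seen, by Tac2, Fezf1 and Ppp1r17, did not overlap and together held 42 of the 59 cells. Slc17a6 differed little between them, at 310 CPM (247 to 384) in the Tac2 set, 284 (209 to 376) in the Fezf1 set, 306 (205 to 440) in the Ppp1r17 set and 283 (218 to 362) in the other members. All 42 cells of these sets had a Slc17a6 UMI, and the 5 members without one were all among the other 17. The heatmap of single members shows the blocks of genes that follow the sets. Since the sets were chosen on these cells, the folds between them are descriptions.

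**Figure D2:**
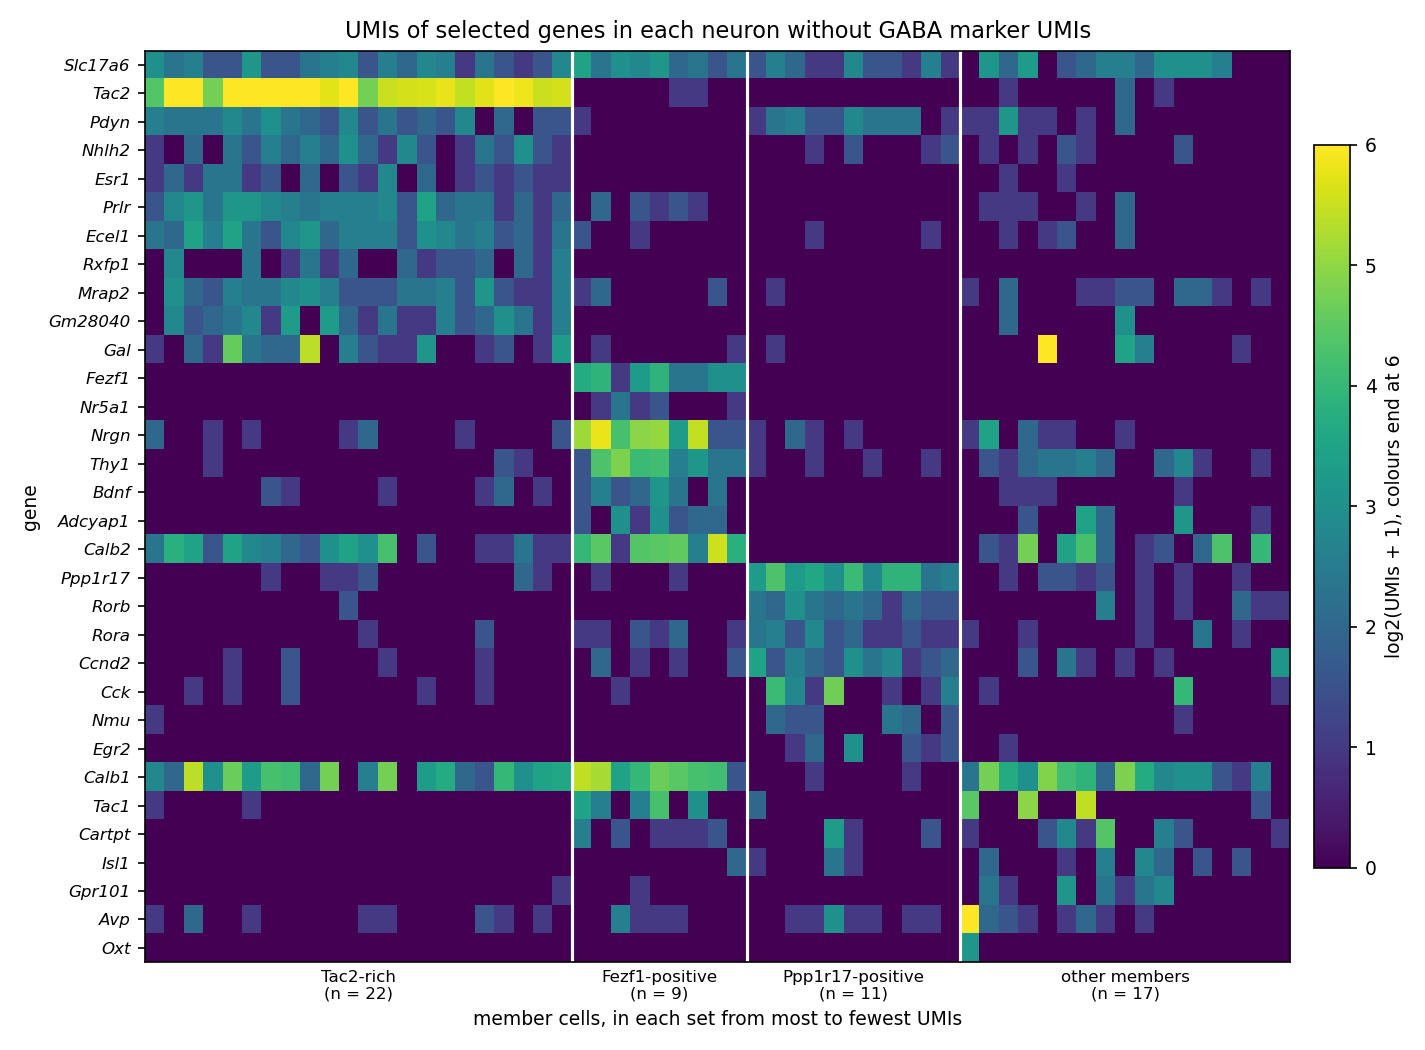
UMIs per cell on the scale log2(UMIs + 1) (colour, ending at 6) of selected genes (rows) in each of the 59 members (columns), ordered by set and within a set from most to fewest UMIs. Tac2 fills the 22 cells at the left, Fezf1 and Nrgn the next 9, Ppp1r17, Rorb, Rora and Ccnd2 the next 11, and Slc17a6 has a UMI in all 42 of these cells.

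The largest set, 22 cells (37.3% of the members), had at least 10 UMIs of Tac2, which encodes neurokinin B. In these cells Tac2 ran from 20 to 90 UMIs with a median of 54, and the 5 other members with any Tac2 had at most 3. They were 6, 5, 5 and 6 cells in barcode numbers 1 to 4, so all 4 numbers held them. In all members the Tac2 level was 2218, 3016, 1127 and 1207 CPM in barcode numbers 1 to 4, and in the GABAergic neurons 925, 552, 283 and 329 CPM. The members were higher in each number and the groups did not overlap. Over all cells the levels were 1609 CPM (1520 to 1702) and 461 CPM (438 to 485), a ratio of 3.49 (3.23 to 3.76).

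Of the KNDy list, Pdyn, the dynorphin precursor, had a UMI in 20 of these 22 cells, the transcription factor gene Nhlh2 in 19, the estrogen receptor gene Esr1 in 18, Sox14 in 10, the neurokinin B receptor gene Tacr3 in 9 and the progesterone receptor gene Pgr in 7. In the other 37 members, Pdyn had a UMI in 18, Nhlh2 in 9, Esr1 in 2, Sox14 in 7, Tacr3 in 1 and Pgr in 6. Pdyn was as frequent in the Ppp1r17 set described below (10 of 11 cells, 349 CPM against 277 CPM in the Tac2 set), Sox14 was found in 6 of 9 and Pgr in 4 of 9 cells of the Fezf1 set, and the interval of the Pgr ratio to the other members included 1 (0.91 to 7.11). The cells may be called KNDy-like by the list as a whole, not by each marker. Gm28040 had a UMI in 20 of the 22 cells and in 2 of the other 37 members, at 284 against 20.4 CPM. In the GENCODE vM21 annotation Gm28040 overlaps Kiss1 and Golt1a on the same strand of chromosome 1, so its reads cannot be assigned to any of the 3 genes. The KNDy list has 8 genes, of which 7 were found in the matrix. No gene there was matched to the symbol Kiss1, so the name KNDy-like does not rest on Kiss1.

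Several genes named after their values were seen set the Tac2 set apart from the other members. Prlr, the prolactin receptor gene, had a UMI in 22 of 22 cells, at 380 CPM against 32.7 CPM in the other members, 11.6-fold higher (6.83 to 21.1). Esr1 stood at 144 against 4.09 CPM. Rxfp1, the relaxin receptor gene, had all of its 39 UMIs in members in 14 of these cells, so that it was at least 23.5-fold higher than in the other 37 members, taking their 0 as 3 counts in all. Nr5a2 likewise had all of its 25 member UMIs in the set, at least 15.1-fold higher. Ecel1, an endopeptidase gene, had a UMI in all 22 cells, at 384 against 24.5 CPM, and Mrap2, which encodes an accessory protein of melanocortin receptors, in 21. Npy1r, a receptor gene for neuropeptide Y, had a UMI in 14 cells and Brs3 in 11. Gal, the galanin precursor, had a UMI in 17 of the 22 cells and in 7 of the other 37 members, at 402 against 190 CPM. In the 17 members outside the sets it was at 399 CPM, but only 4 of them had a UMI. A single cell held 74 of their 90 Gal UMIs. The median of Gal in the Tac2 set was 1.5 UMIs. It reached 41 UMIs in a cell of this set, and 2 of the 22 cells had at least 10 UMIs of both Gal and Tac2.

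Tac2 neurons also occurred outside the members. Of the 49 neurons under the same limits with at least 10 Tac2 UMIs, 22 (44.9%, 30.7 to 59.8) had no GABA marker UMI and 27 had one or more, in 24 of them from 1 to 5, with a median of 2. Those 27 cells had Tac2 at 3977 CPM against 4491 CPM in the 22 members, and Slc17a6 at 300.2 against 310 CPM, and 26 of them had a Slc17a6 UMI. Their median depth was 14112 UMIs per cell against 12290. The Tac2 neurons were thus divided by the GABA rule with near equal levels of both genes on either side.

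Fezf1, a zinc-finger gene known from the developing ventromedial hypothalamus, had a UMI in 9 members and marked the second set. These cells had 1 to 14 Fezf1 UMIs, with a median of 7, and the other 50 members had none. They were 1, 0, 6 and 2 cells in barcode numbers 1 to 4, and the Fezf1 level of all members was 23.97, 0, 250.4 and 29.9 CPM there. Barcode number 3 gave 60 of the 72 Fezf1 UMIs behind the level of 94.7 CPM over all members, which stood against 2.99 CPM in the GABAergic neurons. The set was deep, with a median of 20591 UMIs per cell (11180 to 23882) and a median of 93 UMIs of the 4 neuronal genes of the rule.

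Of the ventromedial nucleus list, Adcyap1, the precursor of the peptide PACAP, had a UMI in 7 of the 9 cells, Sox14 in 6, Nr5a1 in 5 and Gpr149 in 4. Nr5a1, which encodes the steroidogenic factor SF-1, and Gpr149 had no UMI in the other 50 members. The other 2 genes did not mark this set alone. Adcyap1 was at 148 CPM here and at 106 CPM in the 17 members outside the 3 sets. Sox14 was at 47.3 CPM here and at 51.7 CPM in the Tac2 set. The genes that led this set against the other members included Nrgn, which encodes neurogranin, at 1336 against 59.2 CPM (22.6-fold, 15.8 to 33.2), Gda (343 against 16.9 CPM) and Thy1 (603 against 69.3 CPM). Bdnf, the gene of the growth factor BDNF, had a UMI in 7 of the 9 cells, at 166 against 22.0 CPM. The 6 cells of barcode number 3 had 2 to 8 of its UMIs each, and those of numbers 1 and 4 had 0 to 2. Nrgn is also on the cortical and hippocampal list. Slc17a7, Neurod6, Neurod2 and Tbr1 of that list had 0 UMIs in all 59 members, whereas Camk2a of the same list was found. Its level in barcode numbers 1 to 4 was 53.9, 34.7, 91.8 and 44.9 CPM in all members. In the GABAergic neurons it was 91.9, 77.2, 97.9 and 85.8 CPM. Among all neurons under the same limits, 15 had a Fezf1 UMI, and 9 of these (60.0%, 32.3 to 83.7) were members.

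The set with at least 4 UMIs of Ppp1r17, a gene for a phosphatase inhibitor, held 11 cells, with 4 to 19 UMIs and a median of 9. They were 1, 2, 2 and 6 cells in barcode numbers 1 to 4, and 16 other members had a Ppp1r17 UMI. These were shallow cells, with a median of 8439 UMIs (6576 to 11157) and of 27 UMIs of the 4 neuronal genes, and 5 of the 6 members nearest to the lower limit of the rule belonged to them. The retinoid-related orphan receptor genes Rorb and Rora had a UMI in all 11 cells, at 380 against 21.02 CPM and 296 against 30.04 CPM in the other members. Ccnd2, a cyclin gene, was also in all 11 (475 against 43.6 CPM).

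Cck, the cholecystokinin precursor, had a UMI in 7 of these cells, at 581 against 36.0 CPM, but 2 cells held 25 and 16 of its 55 UMIs and the median was 1. Nmu, the neuromedin U precursor, had a UMI in 6 and Pdyn in 10. The immediate early gene Egr2 had 16 UMIs in 6 of them and 1 UMI in the other 48 members, and Junb stood at 317 against 79.6 CPM. Calbindin and calretinin transcripts were sparse here, with 2 UMIs of Calb1 and 0 of Calb2 in the set against 926.6 and 557 CPM in the other members. The set was left unnamed. In contrast to the Tac2 neurons, the 18 GABAergic neurons with at least 4 Ppp1r17 UMIs were unlike the members of the set, with Slc17a6 in 3 of them at 26.8 CPM, a Dlx UMI in 15 and a median of 14.5 GABA marker UMIs.

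The other 17 members had mixed profiles. A cell of barcode number 4 held 2885 of the 2929 Avp UMIs of the members, among 23503 UMIs in all, with 8 UMIs of Oxt, 9 of Pou3f2, 6 of Otp and 3 of Sim1. These are genes of magnocellular neurons, and this cell had no Slc17a6 UMI. No other member had more than 7 Avp UMIs, and Avp UMIs were also found in 14.4% of the microglial cells and 22.0% of the oligodendrocytes. Leaving that cell out, an alternative added after seeing the data, moved no count of genes given below by over 1.5 times. A cell of barcode number 1 had 74 UMIs of Gal, 11 of Qrfp and 0 of Slc17a6.

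Tac1, the substance P precursor, had at least 10 UMIs in 3 of these 17 cells, the highest being 42. Gpr101, an orphan receptor gene, had a UMI in 7 of the 17 and in 2 of the other 42 members, and the LIM homeobox gene Isl1 in 7 and 4. The other 3 members without Slc17a6 had 9229, 4983 and 4337 UMIs in all, and the last 2 of these were the shallowest members. Scrublet, run within each barcode number, called 1 member a doublet, and 1 member shared its barcode sequence with a cell of another number. Both calls fell among the 17 cells and in none of the 3 sets. Of all 59 members, 33 had at least 10 UMIs of a peptide gene, 27 of 1 gene, 5 of 2 and 1 of 3.

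Against the GABAergic neurons, 8279 genes outside the rule had at least 50 UMIs over both groups. A gene was called where the log2 ratio of (CPM + 10) was at least 1 in size. There were 41 genes higher (0.495% of those compared) and 59 lower (0.713%) in the members, and the median over all genes compared was -0.03. Of the called genes, 26 of the 41 higher and 55 of the 59 lower had the same direction in all 4 barcode numbers, as had 1363 of all 8279. Without barcode number 3, 24 genes were higher and 60 lower. Since the GABA rule chose the groups, these counts are a description of the contrast.

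The genes most raised in the members in all 4 barcode numbers were Slc17a6 (log2 ratio 2.00), Tac2 (1.78), Arpp21 (1.55), Rxfp1 (1.52), Gm27199 (1.504) and Tmem163 (1.45). Next came the genes of the pentraxins, Nptx2 (1.37) and Nptx1 (1.33), which gather at excitatory synapses, and Gm28040 (1.36). Barcode number 3 held 21 of the 31 Nptx1 UMIs of the members, and without it the log2 ratio of Nptx1 was 0.64. Cacna2d1, which encodes a calcium channel subunit bound by gabapentin, had a UMI in 52 of 59 members and 112 of 245 GABAergic neurons, at 199.9 against 72.2 CPM. Arpp21 was at 0.41 against all 378 GABAergic neurons, where it was no longer called, while the other 14 of the 15 genes highest by the naming rule were. Without barcode number 4 that of Cacna2d1 was 0.94, and without number 3 that of Calb1 was 0.94. These 15 ended with Nr5a2 (1.30), Pdyn (1.24), Hs3st4 (1.19), Nhlh2 (1.19) and Calb1 (1.19). Gm27199 overlaps Lhx5 on the opposite strand, and whether the counting used strand is not given in the sources used here. Rxfp1, Nr5a2, Gm28040, Nhlh2 and Tac2 were carried by the Tac2 set, whereas Calb1 was found in 45 of the 48 members outside the Ppp1r17 set. Slc17a6, Rxfp1, Cacna2d1 and Hs3st4 each overlap a predicted gene of the same strand, so reads in the overlap are uncertain.

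**Figure D3:**
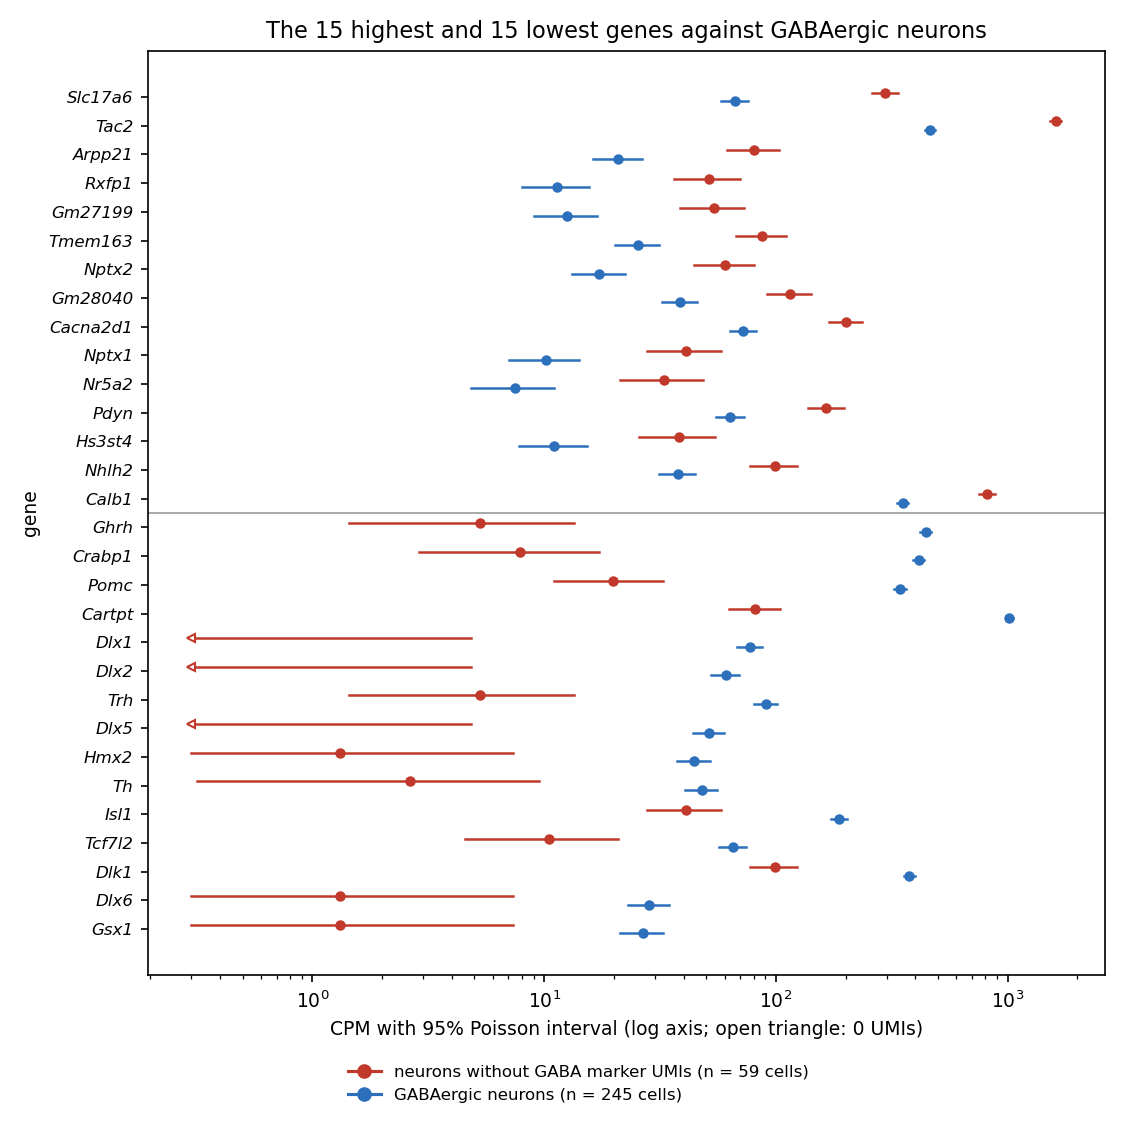
Level in CPM (log axis, with exact 95% Poisson intervals; open triangles are 0 UMIs) of the 15 genes highest (above the line) and the 15 lowest (below) in the 59 members (red) against the 245 GABAergic neurons (blue), among genes of 1 direction in all barcode numbers. Slc17a6 stands at 296 against 66.3 CPM and Ghrh at 5.26 against 442 CPM.

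Among genes with the same direction in all 4 barcode numbers, the 15 lowest in the members included peptide and homeobox genes. Ghrh, the growth hormone-releasing hormone gene, was at 0, 0, 8.35 and 7.48 CPM in the members of barcode numbers 1 to 4 and at 417, 668, 337 and 457 CPM in the GABAergic neurons. Over all cells the 4 member UMIs made 5.26 CPM against 442 CPM, 84.0-fold lower (32.7 to 309), with all GABAergic UMIs in 37 cells. Pomc (19.7 against 344 CPM) and Cartpt (81.5 against 1017 CPM), precursors of melanocortin and CART peptides, and Trh (5.26 against 90.5 CPM) were low as well. The same 15 held Crabp1, at 7.89 against 413 CPM, Th, which encodes the rate-limiting enzyme of dopamine synthesis, at 2.63 against 47.8 CPM, and Dlk1, at 98.6 against 376 CPM.

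Homeobox genes were also among them. Dlx1, Dlx2 and Dlx5 had 0 UMIs in the members and were at least 19.6-fold, 15.4-fold and 13.0-fold lower, with the limit of 3 counts taken over all members. Dlx6, Hmx2 and Gsx1 had 1 UMI each. Isl1 was at 59.9, 0, 29.2 and 52.3 CPM in the members of barcode numbers 1 to 4 and at 174, 183, 186 and 199 CPM in the GABAergic neurons, with no overlap. Besides the homeobox genes, the transcription factor gene Tcf7l2 was at 10.5 against 65.1 CPM over all cells. The plot of levels by barcode number shows that the members lay below for Isl1 and Cartpt and above for Slc17a6, Tac2 and Calb1 in each of the 4 numbers, while Fezf1 was raised mainly in number 3.

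**Figure D4:**
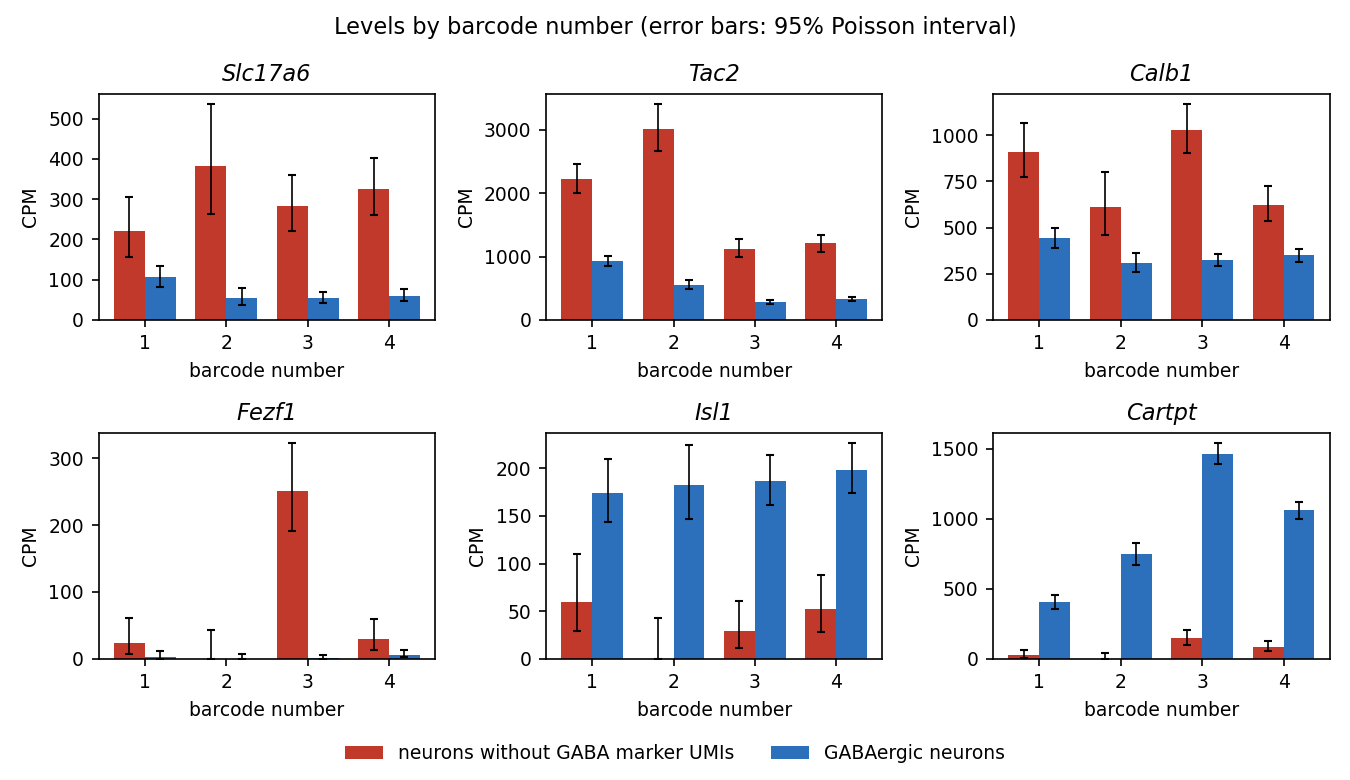
CPM (vertical axes, starting at 0) of 6 genes in the members (red) and the GABAergic neurons (blue) of barcode numbers 1 to 4 (horizontal axes); error bars are exact 95% Poisson intervals. Fezf1 in the members reaches 250.4 CPM in number 3 and at most 29.9 CPM in the other numbers, and Isl1 in the members is at most 59.9 CPM where the GABAergic neurons have at least 174 CPM.

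Gene lists described the same contrast, to be read beside the shares of 0.495% and 0.713% called among all genes. Of the 20 neuropeptide and related secreted factor genes compared, 5 were higher in the members (Tac2, Adcyap1, Bdnf, Cck and Pdyn) and 9 lower, with a list median of -0.79. Vip had 1 UMI in the members and 1001 UMIs in 21 GABAergic neurons, and Gal was at 266 against 1009 CPM. In barcode number 1 Gal ran the other way, at 701 against 635 CPM, but 1 cell held 74 of the 117 Gal UMIs of the members there. In numbers 2 to 4 Gal was lower in the members. Adcyap1 was at 64.4 against 13.4 CPM, Bdnf at 53.9 against 11.3 CPM and Cck at 104 against 33.4 CPM, and for these 3 genes the direction was not the same in every barcode number. Cck was at a log2 ratio of 0.72 against all GABAergic neurons and 0.79 without barcode number 4, Adcyap1 at 0.98 without number 4 and Bdnf at 0.63 without number 3, and none of these was called. All 3 genes of the monoamine list that were compared, Th, Ddc and Slc18a2, were lower, Ddc and Slc18a2 not being called against all GABAergic neurons (-0.77 and -0.95). Of 29 hypothalamic transcription factor genes compared, 4 were higher (Fezf1, Lhx5, Nhlh2 and Nr4a2, of which Fezf1 and Lhx5 did not have the same direction in every barcode number) and 7 lower (Hmx2, Isl1, Tcf7l2, Otp, Six6, Hmx3 and Lhx1). Of these, Nr4a2 was at 0.66 without barcode number 2, Lhx1 at -0.80 without number 3 and Hmx3 at -0.98 against all GABAergic neurons, and these were not called.

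Of 14 granin and processing genes, the convertase genes Pcsk1 (47.3 against 18.2 CPM) and Pcsk2 (201 against 94.3 CPM) were higher and none lower, with a list median of 0.08. Pcsk2 was at a log2 ratio of 0.55 against all GABAergic neurons and 0.93 without barcode number 3, and was called in neither. In cells thinned to 2000 UMIs the log2 ratio of Pcsk1, 1.02, was 0.91 in a draw and -0.98 in another, so its direction did not hold. Of 20 hormone receptor genes compared, 1 was higher and none lower, with a median of -0.20. Prlr, at 156 against 74.0 CPM, fell short of the call with a log2 ratio of 0.99. Lepr and Ghsr, the receptor genes for leptin and ghrelin, had 0 UMIs in the members, a limit of 3.94 CPM, and stood at 3.58 and 4.78 CPM in the GABAergic neurons. The intervals of both ratios included 1. Among channel genes 1 of 24 was higher (Cacna2d1) and none lower. None of 12 glutamate receptor genes and none of 14 GABA receptor genes was called, with medians of 0.13 and 0.03.

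Over all cells the 11 immediate early genes compared all had a positive log2 ratio, with a median of 0.59. For several of them that sign did not hold in every barcode number. In numbers 1 to 4 the log2 ratio of Fos was 0.18, -0.86, -0.29 and 0.92. That of Junb was 0.39, -1.05, 0.58 and 1.43, and that of Jun 0.05, 1.06, -0.34 and 1.07. Jund, the most abundant of the list, was positive in all 4 numbers. Egr1 alone was called (55.2 against 21.8 CPM), at 0.24, -1.01, 1.38 and 1.16 in numbers 1 to 4. It had 0 UMIs in the members of number 2, so its direction was not the same in every number. None of the 10 heat shock genes and none of the 12 genes of the mitochondrial genome was called, with medians of -0.02 and -0.01. The mitochondrial share was 3.76% of UMIs in the members and 3.83% in the GABAergic neurons.

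Transcripts of other cell types are given as summed levels, and their part in the results was not tested. The 14 oligodendrocyte lineage genes summed to 761 CPM in the members (419.6, 369.8, 838.7 and 1032 CPM in barcode numbers 1 to 4) and 865 CPM in the GABAergic neurons. Olig1 was the only gene of that list called, at 11.8 against 36.4 CPM, and Cspg4 had 0 UMIs in the members. Astrocyte genes summed to 270 against 327 CPM, led by Agt, with none of 10 at 0. Microglia and macrophage genes summed to 180.1 against 189.9 CPM, led by C1qb, with Mrc1 at 0. Tanycyte genes summed to 119.7 against 129.6 CPM, led by Col25a1, with Dio2 at 0. Ependymocyte genes summed to 245 against 302 CPM, led by Fam183b, vascular and leptomeningeal genes to 112 against 141 CPM, led by Itm2a, and pars tuberalis genes to 255 against 266 CPM, led by Chga. Pituitary hormone genes summed to 48.6 against 364 CPM, a list that holds Pomc (19.7 against 344 CPM), with Gh, Prl and Fshb at 0. The 4 haemoglobin genes summed to 17.1 against 18.8 CPM.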

How the data were processed

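Single cells of the ME were profiled by droplet-based 3' sequencing (10x Genomics v2). The deposited matrix holds UMI counts per gene and cell, which the authors made with Cell Ranger 2.0 on mm10 and did not normalize. The annotation release and the rule for calling cells are not given in the sources used here. The study lists 32 sample records, 16 per condition, which are parts of 4 libraries. No record could be tied to a cell, and 0 columns were set aside.

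Gene identifiers were matched to GENCODE vM21 symbols for 27645 of 27998 genes. The 5982 cells held 29288898 UMIs, 7806887, 6508038, 7243332 and 7730641 in barcode numbers 1 to 4, and none was removed. Of these, 42 cells shared a barcode sequence with a cell of another number. Levels are CPM of summed UMIs with exact Poisson intervals, shares have Clopper-Pearson intervals and ratios exact conditional binomial intervals. PCR and capture within a cell are not covered by them. Genes with at least 50 UMIs over both groups were compared on log2(CPM + 10), so the change of low genes is understated. Cells were thinned to 2000 UMIs without replacement, in 2 random draws; the alternatives first used the other draw, which was replaced by the draw of the shares in the text after its values were seen, and both are given. Microglial and oligodendrocyte cells had at least 10 UMIs of C1qa, C1qb and C1qc or of Mog, Mal and Ermn and fewer than 20 of the 4 neuronal genes. Scrublet was run in scanpy 1.11.5, and doublets were kept except in an alternative. The steps were tested on simulated data.

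The genes named are those of the rule, those of the gene lists at 100 CPM or more or past 1 log2 unit, and the 15 highest and 15 lowest genes with 1 direction in all 4 barcode numbers, a UMI in at least 5 cells and at most 50% of UMIs in 1 cell. Genes that lead the Tac2, Fezf1 and Ppp1r17 sets and those of single cells were named after their values were seen. Some genes that this rule covers are not reported here. The members and lists were chosen with earlier results of these data known. Alternatives changed the rule, depth, comparison group, pseudocount, filter, weights, doublets and barcode numbers used.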

Additional observations from a re-analysis of the deposited data

Results flagged for a closer look

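In 109 sets of 4 values, 1 for each barcode number, 6 had a value far from the other 3, where chance flags about 1 in 20. Genes with fewer than 20 UMIs in the members were left out, a minimum set after the values had been seen. Without it 14 of 132 sets stood out, the 8 more being those of Dlx6, Gsx1, Hmx2, Hmx3, Scgn, Slc18a2, Trh and Vip, which had 1 to 4 UMIs in the members. Fezf1 in the members stood at 250.4 CPM in barcode number 3 against 0 to 29.9 CPM in the others. Nptx1 stood at 87.6 CPM in number 3 against 11.99 to 23.1 CPM, and Calm2 at 4886 CPM in number 3 against 4160 to 4209 CPM. Gm27199 was low in number 3, at 41.7 CPM against 57.8 to 59.9 CPM. Barcode number 2, which held the fewest members (8), was low for Map2 (127 CPM against 228 to 246) and Tcf4 (80.9 CPM against 123 to 126).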

How the results depend on the processing

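No paired analysis was possible because the cells carry no condition and no test was run. The share of neurons without GABA marker UMIs, 13.5%, was 12.7% to 14.6% with each barcode number left out in turn. It rose to 28.6% with neurons thinned to 2000 UMIs (27.2% in another draw), 18.3% with at most 1 GABA marker UMI allowed and 27.9% with Slc32a1 alone at 0, each of which loosens the rule by construction. It stayed within its interval under the other 5 alternatives. The log2 ratio of Slc17a6, 2.00, was 1.87 to 2.29 with each barcode number left out. It was 2.54 against all GABAergic neurons, 2.87 against those with at least 3 GABA marker UMIs, 3.96 against those with at least 6 (added after seeing the data) and 2.66 in thinned cells, but 2.09 in the other draw. The counts of higher and lower genes (41 and 59) became 79 and 191 with a pseudocount of 1 CPM, 6 and 13 with 50 CPM, and 13 and 20 with at least 200 UMIs per gene. In thinned cells, 9 of 2269 genes were higher, and 18 of 2275 in the other draw, so thinned values depend on the draw. The other draw had been run first and is given as an alternative added after seeing the data. Leaving out each barcode number gave 24 to 45 higher genes, lowest without number 3, and 60 to 77 lower. Of the 54 named genes past 1 log2 unit, 1 changed direction under the 15 alternatives, Pcsk1, at -0.98 in the other thinned draw against 1.02. In all, 39 were under 1 log2 unit in size in at least 1, of which 36 did so with 50 CPM, 12 without barcode number 3, 12 against all GABAergic neurons (among them Arpp21 at 0.41, Pcsk2 at 0.55, Nrgn at 0.64 and Cck at 0.72), and 11 and 13 in the 2 thinned draws. The causes were not tested. Depth limits what a single cell can show, since 0 UMIs allowed up to 242 CPM in a member of median depth.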
